A study of Homo sapiens with 4 samples.

Results

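The genes of the proteasome and of the deubiquitinases were examined in a list of RNA regions recovered with the RNA-binding protein HuR. Members were chosen by symbol. A peak was taken when the gene of the RefSeq transcript named in its annotation was called PSMA to PSMG followed by a digit (the proteasome genes), or USP followed by a digit or OTU (the deubiquitinase genes). This gave 117 of 14149 peaks, which lay in 32 of 3313 genes with a peak. Of these, 29 peaks in 6 genes belonged to the proteasome set and 88 peaks in 26 genes to the deubiquitinase set.

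RNA was immunoprecipitated (RIP) from lysate of MDA-MB-231, a breast cancer cell line of the triple-negative type, to find transcripts bound by HuR. The HuR RIP group had 2 samples made with a mouse anti-HuR antibody, and the IgG RIP group had 2 samples made with mouse IgG. Libraries of total RNA were prepared without poly(A) selection. The list is 1 table for all 4 samples and holds no value for a single sample, so depth per sample, enrichment over IgG and the spread between replicates are unknown. All peaks span 347 bp and carry a peak score, whose median over the list was 34 and whose lowest value was 8.32. A gene without a peak is therefore unlisted and is not shown to be unbound, and a low level of its RNA and weak binding cannot be told apart. Of the markers checked, AXL (best score 2769) and CD44 (best score 769.6), which are high in mesenchymal cells, had peaks, whereas VIM and the markers of other breast cancer types, ESR1, PGR and ERBB2, were unlisted.

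The proteasome degrades proteins tagged with ubiquitin. Its core is a barrel of PSMA (alpha) and PSMB (beta) subunits, of which some beta subunits cut the substrate. The cap holds the PSMC ATPases, which unfold the substrate, and the PSMD subunits, which bind and prepare it. PSME proteins are alternative activators, PSMF1 is an inhibitor and PSMG proteins help to assemble the core. Deubiquitinases remove ubiquitin from proteins. The ubiquitin-specific proteases (USP) and the ovarian tumour proteases (OTU) are families of them. HuR binds AU-rich and U-rich stretches of RNA, many of them in 3′-UTRs.

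Sequences under the leading peaks are shown in short windows, each placed around a motif. For the 3 best-scoring separate 3′-UTR regions of each set, OTUD6B left aside, 30 bases are shown in the sense direction (hg38), with the pentamer ATTTA, or a run of 5 T where the peak held no ATTTA, in capitals. No sequence of OTUD6B is shown, although its best 3′-UTR peak (103) scored above the USP12 regions of 102.8 and 101.6.
PSMD11, chr17:32481156-32481185, + strand: aaaagcaatgacTTTTTattctgtttgtac
PSMD10, chrX:108084477-108084506, − strand: ccatgaggtttaATTTAtttttgtgatagg
PSMD5, chr9:120816772-120816801, − strand: accatctcattaATTTAcaaaggataatct
USP12, chr13:27069086-27069115, − strand: tcatggtagttgATTTAtttgctcaggtat
USP12, chr13:27066965-27066994, − strand: tgacagttttacATTTActttttcttctta
USP12, chr13:27067873-27067902, − strand: aaacgattgcagTTTTTTTggacgTTTTTc
The windows are A- and T-rich, between 66.7% and 76.7%, but each was cut around a motif of A and T, so this is partly built in. The full peaks behind them had GC contents from 35.7% (USP12) to 53.6% (PSMD11), against a median of 37.5% over all 3′-UTR peaks. Searched on the sense strand, ATTTA was found in 4 of 7 proteasome and 10 of 13 deubiquitinase peaks annotated in a 3′-UTR, against 52.7% of the 2062 such peaks in the list. A run of 5 T was found in 6 of 7 and 11 of 13, against 78.5%. At these numbers the Wilson 95% intervals for ATTTA ran from 25.05% to 84.2% and from 49.7% to 91.8%, so both held the share of the whole list. ATTTA and the run of 5 T cannot overlap, and a match is a description of the letters in the window.

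Many peaks were not in a 3′-UTR. To show the exons that they marked, 300 of the 347 bases of the best peak annotated in a coding exon and in an intron are given for each set, in the sense direction, with exon bases in capitals. OTUD6B was again left aside, whose intronic peaks of 140 and 118.4 scored above the USP12 peak of 100.8.
PSMD10, exon 4, chrX:108087563-108087862, − strand: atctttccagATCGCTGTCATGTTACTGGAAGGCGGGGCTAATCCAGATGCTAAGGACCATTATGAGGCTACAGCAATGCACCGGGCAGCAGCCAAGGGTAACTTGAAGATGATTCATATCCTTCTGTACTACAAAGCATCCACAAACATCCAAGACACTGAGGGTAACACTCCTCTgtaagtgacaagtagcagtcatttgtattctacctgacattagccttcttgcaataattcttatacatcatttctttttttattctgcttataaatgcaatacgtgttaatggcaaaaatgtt
PSMD11, exon 6 and the intron after it, chr17:32469112-32469411, + strand: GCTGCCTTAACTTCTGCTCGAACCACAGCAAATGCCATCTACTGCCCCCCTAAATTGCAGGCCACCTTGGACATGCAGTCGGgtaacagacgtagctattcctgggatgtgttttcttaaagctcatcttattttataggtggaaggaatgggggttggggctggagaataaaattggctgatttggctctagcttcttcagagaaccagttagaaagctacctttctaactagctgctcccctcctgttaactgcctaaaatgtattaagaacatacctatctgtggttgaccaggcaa
OTUD4, exon 13, chr4:145150398-145150697, − strand: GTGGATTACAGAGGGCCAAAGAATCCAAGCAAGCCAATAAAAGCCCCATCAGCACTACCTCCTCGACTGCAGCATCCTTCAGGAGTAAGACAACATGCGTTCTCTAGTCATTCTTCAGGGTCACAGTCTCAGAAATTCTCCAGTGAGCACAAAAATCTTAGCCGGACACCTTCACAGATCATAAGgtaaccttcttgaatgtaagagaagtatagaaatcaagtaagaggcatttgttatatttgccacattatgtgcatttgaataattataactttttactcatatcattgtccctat
USP12, exon 3 and the intron after it, chr13:27105500-27105799, − strand: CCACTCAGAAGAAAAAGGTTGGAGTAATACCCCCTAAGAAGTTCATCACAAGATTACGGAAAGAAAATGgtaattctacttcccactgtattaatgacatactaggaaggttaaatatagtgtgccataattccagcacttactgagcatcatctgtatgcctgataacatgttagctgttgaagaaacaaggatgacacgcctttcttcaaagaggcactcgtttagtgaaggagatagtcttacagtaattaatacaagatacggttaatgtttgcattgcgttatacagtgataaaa
Exon bases made up 167, 82, 185 and 69 of the 300 bases in PSMD10, PSMD11, OTUD4 and USP12. None of the 4 full peaks held an ATTTA on the sense strand. Over the list ATTTA was found in 55.4% of intronic and 35.6% of exonic peaks. Among members it was found in 9 of 18 proteasome and 37 of 61 deubiquitinase intronic peaks, and in 0 of 3 and 1 of 6 exonic peaks. Peaks were searched where the list places them. Over the list, 96.4% of the centres placed in introns were within 1 peak length of an exon. These shares therefore do not compare motifs at sites of binding in introns and exons.

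The first comparison was of how many genes of each set were listed. Of 50 protein-coding proteasome genes, 6 had a peak, which is 12% (Wilson 95% interval 5.62% to 23.8%). Of 89 protein-coding deubiquitinase genes, 25 had a peak, which is 28.1% (19.8% to 38.2%). The background was 15.4%, or 3084 of 20050 protein-coding genes, and lay inside the proteasome interval and below that of the deubiquitinases. The difference between the sets, deubiquitinase minus proteasome, was 16.1 percentage points (Newcombe 95% interval 1.67 to 28.0). These intervals cover counting error only, and no test was run because genes are not replicates. The difference was 2.36 points when a peak had to reach the median score (5 of 50 and 11 of 89 genes, background 7.79%), and 3.60 points when the nearest gene named in the list was used as the host, and both intervals then included 0. At the median score the deubiquitinase share was 12.4% (7.04% to 20.8%), an interval that held the background of 7.79%.

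Within the proteasome set, the genes with a peak were 2 cap subunits, 2 chaperones of cap assembly, 1 activator and PSME3IP1, which is not a subunit. None of the 8 core alpha genes, the 11 core beta genes or the 6 cap ATPase genes had a peak, and the Wilson upper limit for these 25 genes together was 13.3%. Their transcripts were mostly short, with a median exon length of 1195 bp, and of all protein-coding genes with up to 1533 bp 2.17% had a peak. Some were longer, up to 4426 bp for PSMB2, and of all protein-coding genes from 3571 to 5390 bp 24.1% had a peak. A background matched to the lengths of these 25 genes was not computed. The unlisted core genes included PSMB5, PSMB6 and PSMB7, the catalytic beta subunits, and PSMB8, PSMB9 and PSMB10, their immunoproteasome counterparts. In the PSMD set 4 of 14 genes had a peak, in the PSME activators 1 of 4, and in the PSMG chaperones 0 of 4. PSMF1, whose exon length of 8154 bp was above that of every listed proteasome gene, was unlisted too. Among the PSMD genes, PSMD5, PSMD9 and PSMD10 encode chaperones that assemble the base of the cap and leave the finished particle. Of these 3, 2 were listed, as were 2 of the 11 other PSMD genes.

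**Figure D1:**
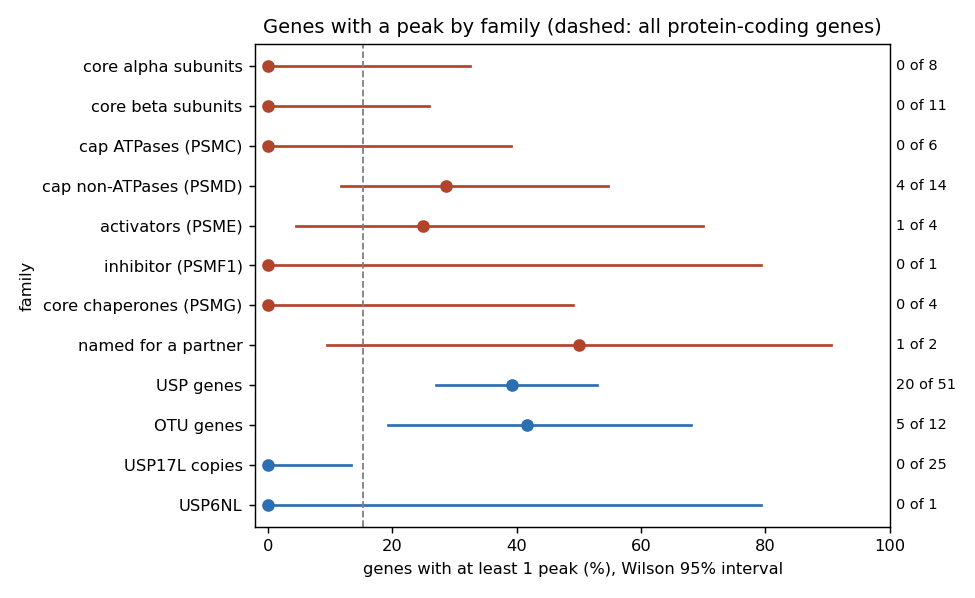
Share of genes with at least 1 peak by family (x axis, %), with red for proteasome and blue for deubiquitinase families; points are shares, bars Wilson 95% intervals, and the dashed line is the 15.4% of all protein-coding genes. The core alpha, core beta and cap ATPase families are at 0, whereas USP and OTU genes are at 39.2% and 41.7%.

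Among the deubiquitinases, 20 of 51 USP genes (39.2%) and 5 of 12 OTU genes (41.7%) were listed. They include USP39 and OTULINL, whose proteins have no known protease activity. The other members of the set were the 25 USP17L genes, near-identical copies without introns, and USP6NL, a GTPase-activating protein that is no deubiquitinase. All 26 were unlisted. Reads from USP17L copies can match several of them, and how such reads were counted is not stated. Without these 26 genes 25 of 63 were listed (39.7%), and the difference from the proteasome set was 27.7 points (11.4 to 41.6). Close relatives did not share a state in several cases. USP12 was listed and USP46 was not, USP15 was listed and USP4 and USP11 were not, and USP47 was listed and USP7 was not, whereas USP25 and USP28 were both listed. OTUB1 and OTUB2 were unlisted. Of the 3 deubiquitinases that the cap holds, UCHL5 had 2 peaks (best score 23.2), and PSMD14 and USP14 had none.

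The sets differed in transcript length. The median exon length of the canonical transcript was 1529 bp for the proteasome genes, 4008 bp for the deubiquitinase genes and 2943 bp for all protein-coding genes. Without USP6NL and the USP17L copies the deubiquitinase median was 5090 bp. Over 5 classes of exon length with about equal numbers of genes, the share of all genes with a peak was 2.17%, 6.55%, 14.3%, 24.1% and 33.0% from the shortest to the longest. The shortest class (up to 1533 bp) held 25 of the 50 proteasome genes and 1 deubiquitinase gene, and of these PSMD10 alone was listed. In the longest class (from 5391 bp), 16 of 29 deubiquitinase genes had a peak (55.2%, 37.5% to 71.6%), and 1 of 2 proteasome genes. In the classes between, from shorter to longer, 1 of 30 (3.33%), 3 of 8 (37.5%) and 5 of 21 (23.8%) deubiquitinase genes had a peak. The intervals of these classes held the shares of all genes. The 30 genes of the first of them included all 25 USP17L copies, and USP39 was the only listed gene there. Over the 2 longest classes together the sets had 21 of 50 and 3 of 8, and the difference was 4.50 points with an interval from −29.8 to 32.0. The proteasome set was thus too small in the long classes to compare the sets at equal length.

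**Figure D2:**
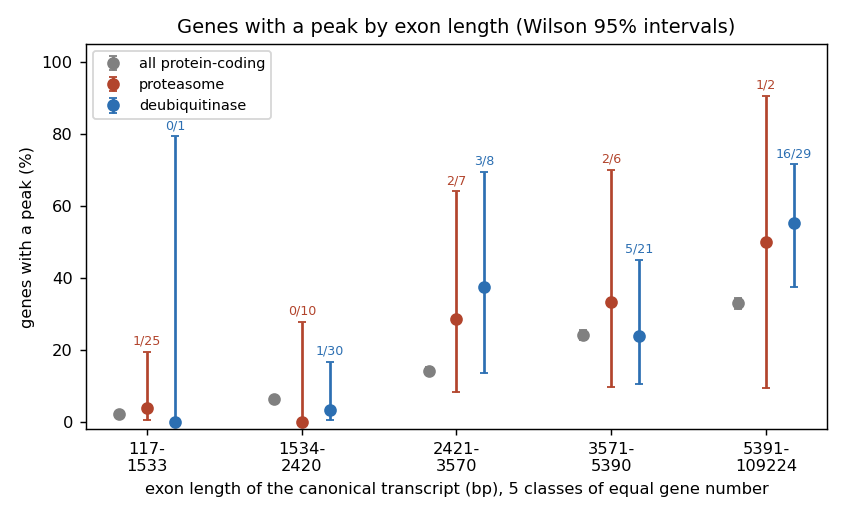
Share of genes with a peak (y axis, %) in 5 classes of exon length (x axis, bp) for all protein-coding genes (grey), proteasome genes (red) and deubiquitinase genes (blue); bars are Wilson 95% intervals and labels give listed over all genes. The share rises with length over all genes, from 2.17% to 33.0%, and 25 of 50 proteasome genes are in the shortest class.

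The listed members also had longer and more AT-rich 3′-UTRs than the unlisted ones, as had listed genes in general. Median 3′-UTR length was 1838.5 bp for the 6 listed and 318 bp for the 44 unlisted proteasome genes, with median GC contents of 36.8% and 41.9%. For the deubiquitinases it was 3127 bp for the 25 listed and 1398.5 bp for the 40 unlisted genes that have a 3′-UTR in the annotation, with GC contents of 38.3% and 41.8%. Over all protein-coding genes the medians were 2503 and 864 bp, and 36.6% and 44.3%. ATTTA occurred in the 3′-UTR of 6 of 6 listed and 21 of 44 unlisted proteasome genes, and of 24 of 25 listed and 29 of 40 unlisted deubiquitinase genes, beside 93.5% and 63.3% of all listed and unlisted genes. A longer 3′-UTR has more room for the pentamer. Median ATTTA per kb of 3′-UTR was 2.42 in listed and 0 in unlisted proteasome genes. It was 3.15 and 2.14 in the deubiquitinases, and 2.68 and 1.24 over all protein-coding genes.

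The second comparison was of peak scores. Although fewer proteasome genes were listed, their peaks scored higher. The median score was 159.6 over the 29 proteasome peaks (quartiles 69.7 and 198.5) and 22.6 over the 88 deubiquitinase peaks (13.9 and 59.0), against 34 over the whole list (17.6 and 83.4). Of the proteasome peaks, 27 of 29 reached the median of the list, and of the deubiquitinase peaks 29 of 88. Most of the 29 came from few genes, with 11 in PSMD11, 8 in PSMD5 and 4 in PSMD10. Some overlapped, so that the 29 made up 22 regions without overlap. Peaks on opposite sides of an exon, as at exons 3 and 7 of PSMD11, counted apart where they did not overlap. Peaks of a gene are not independent. By the best peak of each gene, the medians were 123.1 for 6 proteasome genes and 25.4 for 26 deubiquitinase genes. The difference between the protein-coding genes of the sets was −2.19 on the log2 scale, with an interval from −3.63 to 0.35 from the order of the values. This interval included 0, because the 6 proteasome genes ran from 23 to 299. With the nearest gene named in the list as the host, the difference was −1.12 (−2.92 to 0.69). Without PSME3IP1, the lowest of the proteasome genes and left out after its value was seen, it was −2.75 (−3.66 to −0.92).

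**Figure D3:**
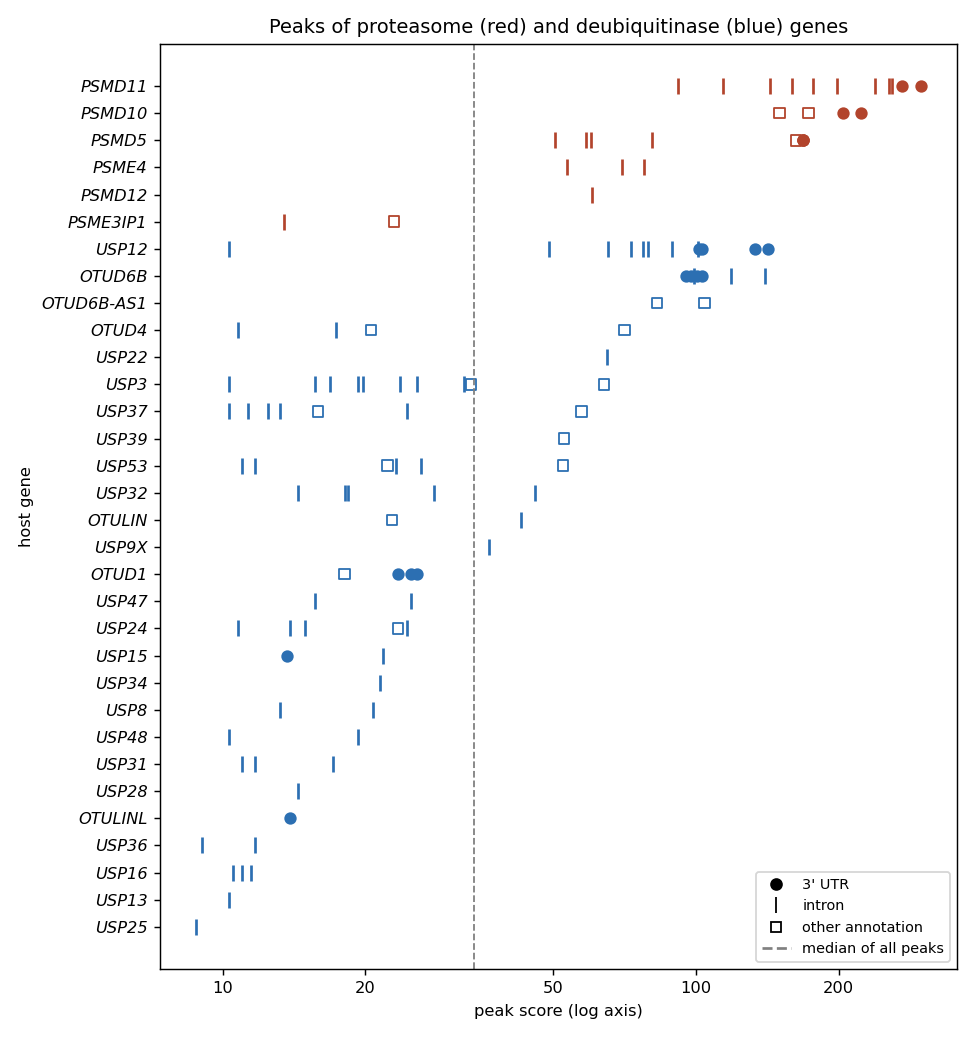
Score of each of the 117 peaks (x axis, log scale) by host gene, with proteasome genes in red and deubiquitinase genes in blue; filled circles are 3′-UTR peaks, bars intronic peaks, squares other annotations, and the dashed line is the median of all peaks, 34. All peaks of 5 of the 6 proteasome genes lie above the median, whereas only USP12 and OTUD6B and its antisense gene reach 100 among the deubiquitinases.

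PSMD11, a scaffold subunit of the cap lid, led both sets. Its 11 peaks scored between 91.8 and 299, and its best peak ranked 934 among all peaks and put the gene at 238 of 3313. The 2 best peaks, at 299 (Poisson 95% counting interval 282 to 316) and 271.9, lay on opposite strands in the 3′-UTR at chr17:32481151-32481497 and chr17:32481265-32481611. They held no ATTTA and were GC-rich for the list, with 53.6% and 55.9% GC against a median of 37.5% over 3′-UTR peaks. The other 9 peaks were annotated in introns and lay close to exons. Exons 2, 3, 6 and 7 each had a peak on both sides, on opposite strands, with scores of 91.8 and 114.3 at exon 2, 143.4 and 159.6 at exon 3, 255.2 and 259.2 at exon 6, and 198.5 and 238.6 at exon 7. The peak after exon 1 scored 176.4 and had a focus ratio of 0.999. The focus ratio is the fraction of a peak's reads placed as a single binding site would place them, and its median was 0.542 over the list. Over the 821 peaks of the list at a first exon the median was higher, at 0.714.

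PSMD10 (gankyrin), an assembly chaperone that is also known as an oncoprotein in liver cancer, had 4 peaks. They scored 222.9 and 204.8 in the 3′-UTR (chrX:108084474-108084820 and chrX:108084619-108084965), 173 in coding exon 4 and 150 in coding exon 3. The counting interval of the best peak, 209 to 238, did not overlap that of PSMD11. At an exon length of 1470 bp it was a short transcript, and no peak of the gene was annotated in an intron. RefSeq lists 3 pseudogenes of PSMD10, and reads that match them could be shared with the gene. None of the 112 pseudogenes that fit the symbols had a peak. A host was assigned only through a RefSeq transcript, so a pseudogene without one could not be listed. The count therefore does not show whether reads were shared.

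PSMD5, the other listed chaperone, had 8 peaks between 50.4 and 168.6. The 4 highest were in the last exon and nearly equal, at 168.6, 168.4 and 168.1 in the 3′-UTR and 162.7 at the end of the coding part. The 4 lower peaks, between 50.4 and 80.8, were intronic beside exons 2, 4 and 6. Thus, the scores in the last exon were about alike and all above those at the inner exons.

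The remaining proteasome genes had lower scores. PSME4, a large activator with 47 exons, had 3 intronic peaks of 77.6, 69.7 and 53.3 beside exons 24, 26 and 43. PSMD12, a lid subunit, had 1 intronic peak of 60.2 (chr17:67350367-67350713), 204 bp from exon 4. PSME3IP1 is named for its binding to an activator and is not a subunit. It had peaks of 23 and 13.5, and the first was a promoter annotation 621 bp outside its canonical transcript, for which the list names RSPRY1 as the nearest gene.

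Of the deubiquitinases, USP12, which acts with WD-repeat cofactors, had the most peaks and the highest score. Its 12 peaks ran from 10.3 to 142.2. There were 4 in the 3′-UTR, at 142.2, 133.4, 102.8 and 101.6, and 8 in introns, of which 7 scored between 48.9 and 100.8. The best peak was at chr13:27068824-27069170 on the strand of the gene, with a counting interval of 131 to 154. Exons 3, 4, 7 and 9 had peaks on both strands. RefSeq lists 5 pseudogenes of USP12. The list names the antisense gene USP12-AS1 as nearest for all 12 peaks, and reads from the antisense RNA cannot be told apart where the genes overlap, because the kit does not mark strand.

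OTUD6B, an OTU enzyme linked to protein synthesis, was close behind. Its 7 peaks lay in a narrow range from 95.2 to 140, with 4 in the 3′-UTR between 95.2 and 103 and the best 2, 140 and 118.4, on the sides of exon 4. The counting intervals of USP12 and OTUD6B overlapped (131 to 154 and 129 to 152). The antisense gene OTUD6B-AS1, the only non-coding member with a peak, had promoter peaks of 104.2 and 82.7. Both covered exons of OTUD6B, which the list also names as their nearest gene. Their centres lay 334 and 934 bp outside the canonical antisense transcript. They may thus be peaks of OTUD6B, and OTUD6B-AS1 counts as a gene with a peak by the annotation alone.

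The next genes scored between 36.5 and 70.7. OTUD4, which has been linked to antiviral signalling and DNA repair, had its best peak of 70.7 in coding exon 13 and 3 further peaks between 10.8 and 20.6. USP22, the deubiquitinase of the SAGA complex, which acts on histone H2B, had 1 intronic peak of 64.8. USP3, which acts on histone H2A, had 10 peaks, with the best at 63.9 in the last exon (3′-UTR of the canonical transcript, annotated as non-coding in the list) and the others between 10.3 and 33.5. USP53, a family member found at tight junctions, had 6 peaks with the best at 52.4 in the coding part of exon 19. USP32, a membrane-bound enzyme, had 5 intronic peaks from 14.4 to 45.8, and 4 pseudogenes in RefSeq. OTULIN, which cleaves linear ubiquitin chains, had peaks of 42.6 and 22.8, and USP9X, a large X-linked enzyme, had 1 peak of 36.5 beside exon 5.

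For USP37 and USP39 the best peak may belong to a neighbour. USP37, a cell-cycle enzyme, had 7 peaks. The best, 57.3, was a promoter annotation 626 bp outside its transcript over an exon of CNOT9, and the other 6 scored between 10.3 and 24.5. USP39, a splicing factor without protease activity, had a single peak of 52.6, which lay 4474 bp from its canonical transcript over an exon of C2orf68. Leaving out the 5 peaks outside the canonical transcript of their host removed USP39 from the listed genes, and the deubiquitinase share was then 27.0%.

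The other 14 deubiquitinase genes had best scores from 8.81 to 25.7, below the median of the list. OTUD1, whose gene is a single exon, had 4 peaks in a range of 18.1 to 25.7, of which 3 were in the 3′-UTR. USP47 (25), an enzyme of base-excision repair, had 2 peaks and USP24 (24.5), with 68 exons, had 5. Most neighbours in the order of best scores could not be separated. In 26 of the 31 neighbouring pairs of the 32 genes the counting intervals overlapped, and the 5 exceptions were all among the 7 highest genes.

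**Figure D4:**
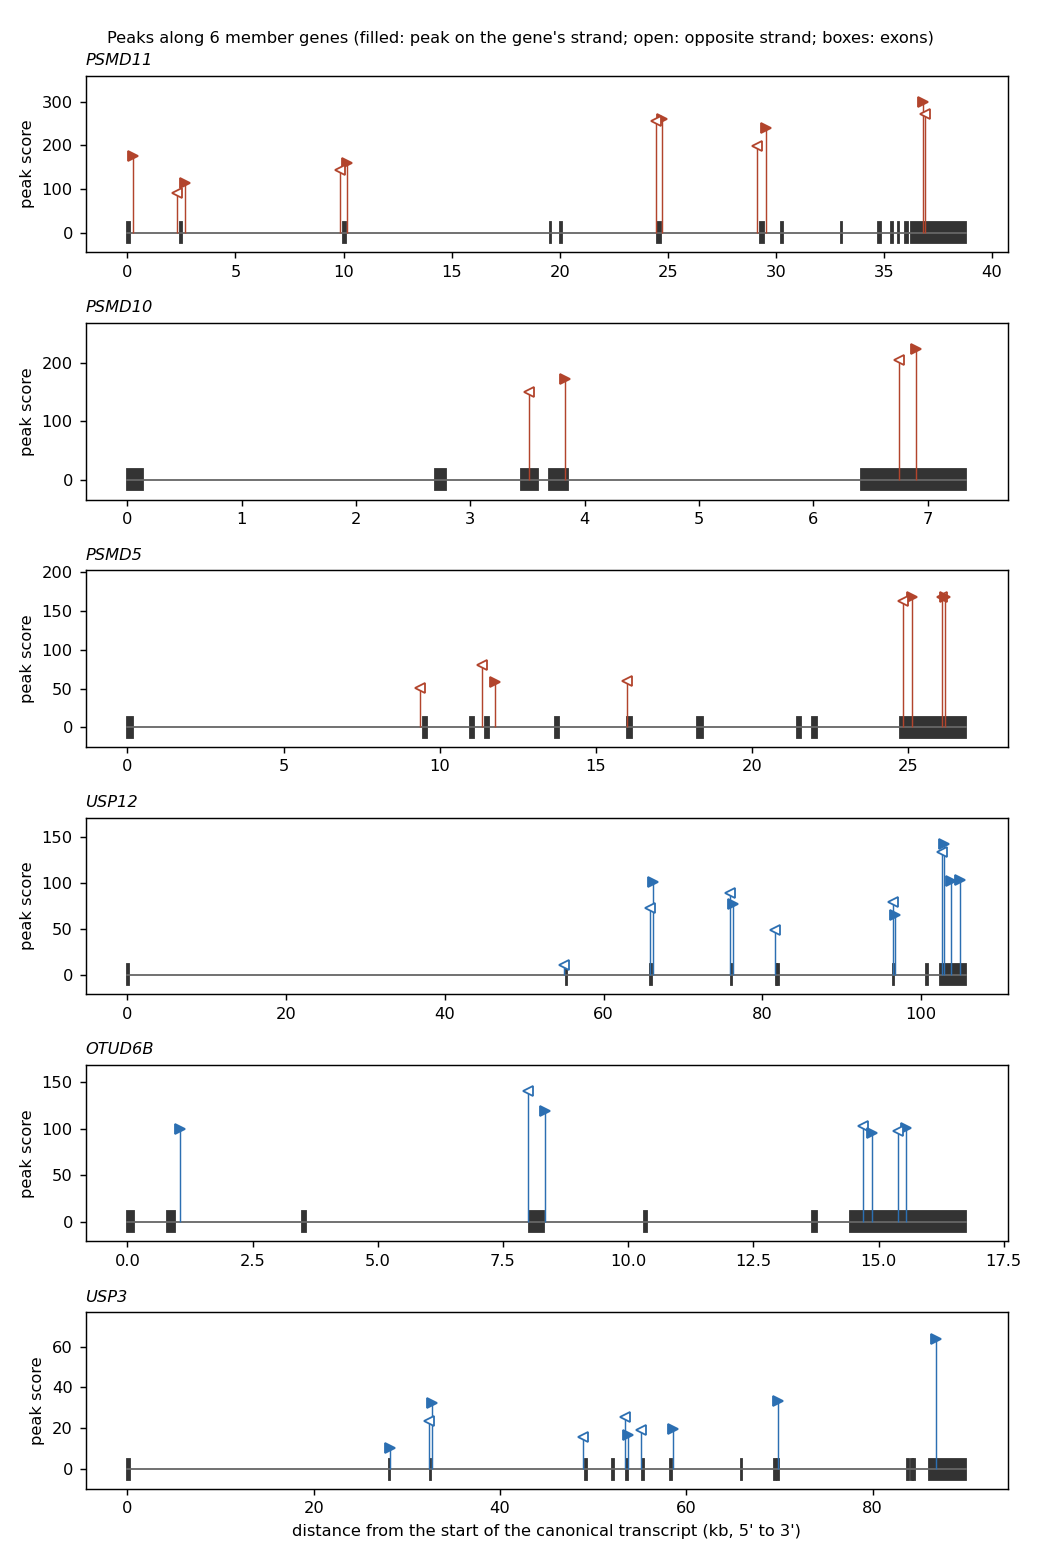
Peak score (y axis) against distance from the transcript start (x axis, kb, 5′ to 3′) for PSMD11, PSMD10, PSMD5, USP12, OTUD6B and USP3; boxes are exons of the canonical transcript, filled triangles peaks on the strand of the gene and open triangles peaks on the other strand. Peaks stand at or beside exons and are highest in the last exon in 5 of these 6 genes, whereas those of OTUD6B are highest beside exon 4.

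The third comparison was of where in the transcript the peaks lay. By the annotation in the list, 7 of 29 proteasome peaks (24.1%, 12.2% to 42.1%) and 13 of 88 deubiquitinase peaks (14.8%, 8.84% to 23.7%) were in 3′-UTRs, against 14.6% of all peaks. Introns held 18 of 29 (62.1%) and 61 of 88 (69.3%), against 61.9%, and coding or other exons 3 and 6. The shares in 3′-UTRs thus overlapped between the sets and with the list. Scores in 3′-UTRs had medians of 204.8 and 97.4, against 65.5 over all 3′-UTR peaks, and intronic scores had medians of 86.3 and 18.1, against 28.6.

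The intronic peaks were next to exons. By the canonical transcripts 80 member peaks had their centre in an intron, at a median of 107.5 bp from the nearest exon, and 78 of them were within 1 peak length of it. In all 78 the exon lay on the left of a + peak or on the right of a − peak, irrespective of the strand of the gene (43 of 43 on the + strand, 35 of 35 on the − strand). In the whole list this held for 8472 of 8507 such peaks, so it was a feature of the list. When every centre was moved by 173 bp, the distance to the edge of the peak, in that direction, the member peaks in coding exons went from 10 to 63 of 117 and those in introns from 80 to 25. The share in 3′-UTRs stayed at 24.1% in the proteasome set and was 13.6% in the deubiquitinase set. How reads were shifted or extended before peaks were placed is not stated, and its part in these positions was not tested. Peaks lay on the strand of the host gene in 58 of 117 cases (49.6%), against 7292 of 13706 placed peaks of the list (53.2%). The unstranded kit gives no strand of the RNA.

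**Figure D5:**
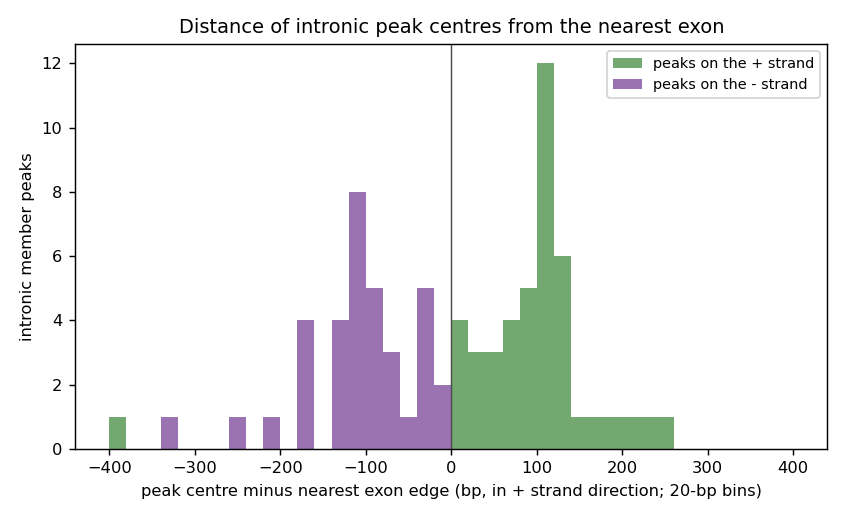
Number of member peaks centred in an intron (y axis) by the distance of the centre from the nearest exon edge (x axis, bp in + strand direction, bins of 20 bp), for 79 of 80 peaks within 400 bp; green bars are + peaks and purple bars − peaks. All 35 − peaks lie to the left of their exon and 43 of 44 + peaks to the right, with the highest bars near 100 bp.

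The nearest gene named in the list differed from the transcript's gene for 58 of 117 member peaks (49.6%), against 41.3% over the list. PSMD11 was named as CDK5R1 in its 6 best peaks, and PSME4 as GPR75. Conversely, that column names PSMA4, PSMA7, PSMB4, PSMC3IP and PSMG1 for peaks whose transcripts belong to HYKK, LSM14B, POGZ, RETREG3 and BRWD1, so core subunits appear there without a peak of their own.

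The other genes of the pathway gave shares near the background. Of 20 partners of the proteasome, 3 had a peak (15%, 5.24% to 36.0%). RAD23B, which carries ubiquitinated proteins to the proteasome, scored higher than every member, with 319.8 for the best of its 3 peaks. NPLOC4, a cofactor of the VCP unfoldase, had a best score of 26.4, and DDI2, the protease that activates NFE2L1, of 17.1. NFE2L1, the transcription factor of proteasome genes, VCP, POMP and ADRM1 were unlisted. Of 24 deubiquitinases and related genes of other families or names, among them the SUMO protease USPL1, 5 had a peak (20.8%, 9.24% to 40.5%). They were VCPIP1 (best score 76.4), MYSM1 (32.8), ATXN3 (27.2, 7 peaks), UCHL5 (23.2) and MINDY2 (17.4).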

How the data were processed

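RNA from 2 HuR RIP and 2 IgG RIP samples of MDA-MB-231 cells was sequenced, and samples were grouped by antibody. Per the labels and the methods, the authors aligned reads with STAR to hg38 and called peaks with HOMER, and the list is a selection of these peaks. Versions, settings, pooling and the treatment of reads with several matches are not given in the sources used here. The deposited peak score is HOMER's value for each peak, with no stated scale. The deposited focus ratio is a fraction from 0 to 1. Both are the authors' values for the whole list.

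Host genes were those of the RefSeq transcripts (13838 of 13929 peaks with a transcript were matched). Canonical transcripts were from GENCODE 44 on hg38, and coordinates are 1-based. Members and lists were chosen with earlier results of these data known. Genes named were all proteasome genes with a peak, the 15 deubiquitinase genes with the highest best peak, those with most peaks, unlisted genes of the classes, and other pathway genes with a peak. Some genes of the pathway are not reported here. Gene groups within the PSMD set, paralogues and the use of separate 3′-UTR regions for sequences were chosen after values were seen. Shares were given Wilson 95% intervals and their difference a Newcombe interval. The interval of a median came from binomial order statistics. Of 11121 scores under 100, 98.3% were whole multiples of 0.245 within rounding (39.3% if spread evenly). Score intervals are exact Poisson 95% intervals on these steps, read as reads, which the authors do not state. All intervals cover counting error only. Reads carry no molecular identifiers, so repeated reads of the same molecule cannot be told apart, and the score intervals may be too narrow. The planned count test of HuR against IgG was not run, because the list holds no counts of samples. Alternatives were the score a peak needs, the host gene, the regions, the genes counted and the placement of peaks. Python 3.11.15, numpy 2.4.6, scipy 1.17.1, pandas 2.3.3, pysam 0.24.0 and matplotlib 3.10.9 were used, and functions were tested on simulated data.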

Additional observations from a re-analysis of the deposited data

How the results depend on the processing

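Over 6 results, 35 alternatives were computed, of which 25 were planned and 10 were added after seeing the data. None changed a direction, and 30 stayed inside the counting interval of the reported value. The share of deubiquitinase genes with a peak was 12.4% when peaks had to reach the median score and 12.4% with peaks in exons and UTRs alone. It was 16.0% with non-coding members counted and 39.7% without USP6NL and the USP17L copies. The share of proteasome genes was 5.45% with non-coding members counted. Non-coding members without a RefSeq transcript could not be listed, which lowers both of these shares. The difference between the sets ran from 2.36 to 27.7 points over its alternatives, and its interval included 0 with the median score, with the Gene Name column of the list (3.60), with peaks in exons and UTRs alone (6.36) and in the 2 longest length classes (4.50). The difference in best scores ran from −3.12 to −1.12 on the log2 scale. No paired analysis was possible because single samples have no values of their own in the deposited table, and for the same reason leaving out replicates was not run. The depth behind these values is unknown.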
